A study of Arabidopsis thaliana with 8 samples.

Results

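Auxin genes of signalling, synthesis and conjugation were followed in whole Arabidopsis thaliana seedlings through the 16 probe sets whose single annotated symbol is IAA, ARF, PIN, LAX, YUC, AFB or SAUR with a number, starts with GH3., or is WES1. They are 7 IAA genes, 4 YUC genes and 5 GH3 genes, each with 1 probe set, out of 22746 probe sets tested. By symbol the RefSeq gene table holds 24 IAA, 11 YUC and 6 GH3 genes, and 32, 11 and 9 with synonyms. Most IAA and YUC genes are therefore not analysed here, and results by class cover the members only. The annotation used here pairs no probe set with an ARF, PIN, LAX, AFB or SAUR symbol, so response factors, carriers, receptor F-box proteins and SAUR genes are not analysed here.

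The series asked which genes E2F factors target, and compared 4 arrays labelled wildtype with 4 labelled E2Fa-Dpa, each of total RNA from whole seedlings of the Col-0 accession. Both groups were grown on agar with Murashige and Skoog salts at 22 °C under 16 h of light and 8 h of dark, and were taken 6 days after germination, 8 days after sowing. E2Fa and DPa form a dimeric transcription factor that acts on genes of the S phase. The labels name the second group only by these proteins and do not say how the plants were made, how many lines there were or how many seedlings went into a sample, and no label says that replicates were grown separately, so p-values measure only the spread between these samples.

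Auxin acts by bringing Aux/IAA proteins, the products of the IAA genes, to F-box receptors that mark them for degradation, which frees the ARF transcription factors they hold in check. Many Aux/IAA and GH3 genes are themselves switched on by auxin. YUC genes encode flavin monooxygenases that make indole-3-acetic acid, the main auxin, from indole-3-pyruvate. Several GH3 enzymes join auxin to amino acids, which stores it or commits it to breakdown. In seedlings auxin governs hypocotyl elongation, root branching and the growth of leaf primordia.

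The median signal of the arrays was 37.9 to 44.4. The arrays also fell into sets that cross the groups. Probe sets for dap, a Bacillus RNA used as a spike-in of labelling, lay between 39.9 and 183 on 4 arrays (wildtype replicates 3 and 4, E2Fa-Dpa replicates 1 and 4). They lay between 0.178 and 6.69 on the remaining 4. These sets of arrays, with and without control RNA, hold 2 arrays of each group. Probe sets under a signal of 16 made up 30.3% to 31.7% on the arrays without control RNA and 34.0% to 35.7% on those with it, with no overlap. The 2 arrays of 1 group and 1 set correlated at 0.974 to 0.994, and the labels do not say whether such a pair shares 1 RNA sample. If it did, each group would hold only 2 independent samples.

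**Figure D1:**
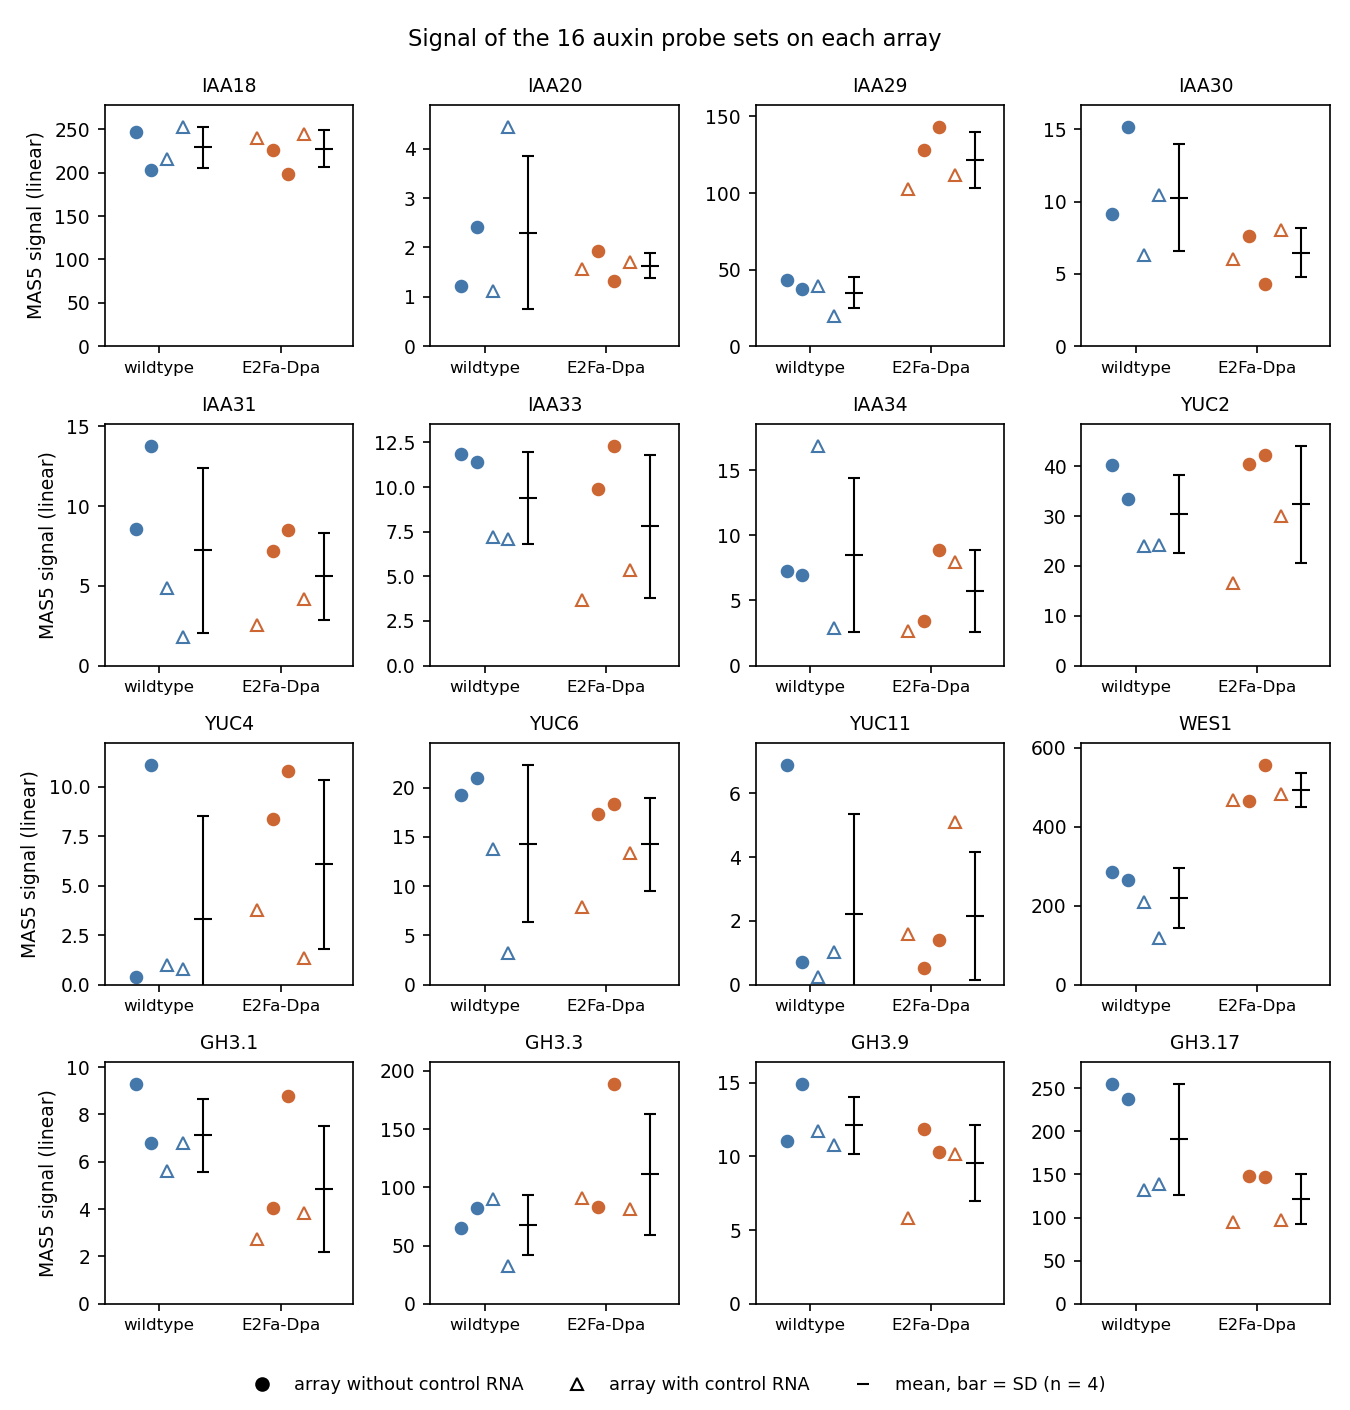
Each panel shows 1 auxin probe set, with the authors' linear MAS5 signal of every array on the y axis (each panel has its own scale from 0) and the groups on the x axis. Filled circles are arrays without control RNA, open triangles are arrays with it, and the bar beside them is the mean with the SD of 4 arrays, cut at 0 for YUC4 and YUC11. The groups stand apart for IAA29 and WES1 and overlap in the other panels.

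Of the 16 auxin genes, IAA29 and WES1 rose in the E2Fa-Dpa seedlings and none fell, by limma with Benjamini-Hochberg adjustment over all 22746 probe sets at a threshold of 0.05. Over all probe sets, 4.36% rose and 2.94% fell in the same test, against 12.5% of the auxin genes that rose. At an unadjusted p under 0.05, 2 auxin genes were higher and 1, GH3.17, was lower. The share of all probe sets at this unadjusted level is not given, so this count and later ones at it are descriptions only. The median log2 fold change of the 16 was -0.03, beside 0.00 over all probe sets, and 7 were above 0 and 9 below it. Fold changes were taken on log2(signal + 16), which understates the change of dim probe sets. In whole seedlings, fewer cells of a type and less RNA per cell cannot be told apart.

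**Figure D2:**
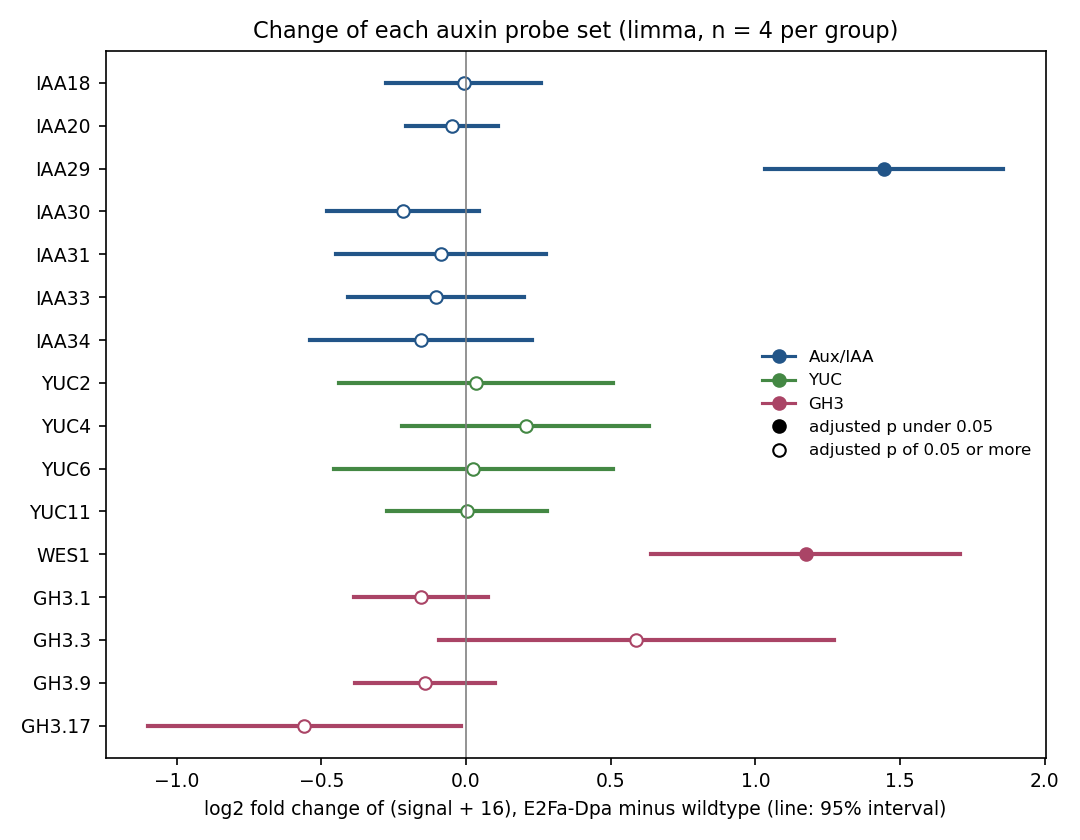
The x axis gives the log2 fold change of signal + 16, E2Fa-Dpa minus wildtype, for each of the 16 genes on the y axis, with its 95% interval from limma as a line (4 arrays per group). Filled points passed the threshold: IAA29 at 1.45 and WES1 at 1.17. The other 14 points lie between -0.56 and 0.59.

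Among the 7 Aux/IAA genes analysed, IAA29 was the member that rose. IAA29 (AT4G32280) encodes an Aux/IAA protein whose gene is known to be induced by auxin and by phytochrome-interacting factors in shade and warmth. Its signals were 43.1, 37.6, 39.7 and 19.9 in wildtype replicates 1 to 4 and 103, 128, 143 and 112 in E2Fa-Dpa replicates 1 to 4. The lowest E2Fa-Dpa array was above the highest wildtype array by more than the range within either group, and wildtype replicate 4 was the lowest of all. The mean went from 35.1 ± 10.4 to 121.5 ± 18.0 (SD, n = 4 each), 3.46 times the wildtype mean. The log2 fold change was 1.45 with an SE of 0.183 (adjusted p = 0.00218), and the exact two-sided permutation p was 0.0286, the smallest that 4 against 4 can give. Without control RNA the rise was 1.43 and with it 1.46, so it was as large in either set. With the pairs of arrays as a random block the adjusted p was 0.0195, in a fit that called 1.53% of all probe sets higher and 0.466% lower. With each pair averaged it was 0.187, where 0.00879% were called, all higher. The size depends on the added constant, with 1.81 at a constant of 1 and 0.91 at a constant of 64.

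The other 6 IAA genes had log2 fold changes of -0.22 to -0.01, and none passed the test. IAA18, known from dominant mutants with fewer lateral roots, was well above the dim range. Its signals ran from 203 to 252 in wildtype, with a median of 231, and from 198 to 245 in E2Fa-Dpa, with a median of 233. The groups overlapped almost completely, and the log2 fold change of -0.01 had a 95% interval from -0.28 to 0.26 (adjusted p = 0.976).

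IAA20, IAA30 and IAA31 encode Aux/IAA proteins that lack the full degradation motif and are long-lived. IAA30 had the lowest log2 fold change of the class. Its signals were 9.16, 15.2, 6.31 and 10.5 in wildtype and 6.00, 7.60, 4.28 and 8.04 in E2Fa-Dpa, with 1 wildtype array under the 2 highest E2Fa-Dpa arrays. The log2 fold change was -0.22, with an interval from -0.48 to 0.04 (adjusted p = 0.306). IAA20 lay between 1.13 and 4.45 in wildtype and between 1.32 and 1.93 in E2Fa-Dpa, and IAA31 between 1.77 and 13.8 and between 2.54 and 8.52. IAA33 ranged from 7.12 to 11.9 in wildtype and from 3.66 to 12.3 in E2Fa-Dpa, and IAA34 from 2.88 to 16.9 and from 2.67 to 8.87. These 5 genes were dim. Of the 16 auxin probe sets 8, those of IAA20, IAA30, IAA31, IAA33, YUC4, YUC11, GH3.1 and GH3.9, were under a signal of 16 on all 8 arrays, and IAA34 was on 7. At such signals a change could have been missed, and no detection calls came with the signals.

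The 4 YUC genes analysed, which act in auxin synthesis, showed no change that passed the test. All 4 log2 fold changes were above 0, from 0.00 to 0.21, and at an unadjusted p under 0.05 the count was 0. YUC2, known with YUC6 from leaves and stamens, had signals of 40.3, 33.3, 24.1 and 24.2 in wildtype and 16.6, 40.5, 42.3 and 30.0 in E2Fa-Dpa. In both groups the 2 arrays without control RNA were the brighter ones. The mean signals were 30.5 ± 7.85 and 32.3 ± 11.8, and the log2 fold change of 0.04 had an interval from -0.44 to 0.51 (adjusted p = 0.944).

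YUC6 split the same way, with 19.2, 21.0, 13.8 and 3.25 in wildtype and 7.89, 17.3, 18.3 and 13.4 in E2Fa-Dpa. Its log2 fold change of 0.03 had an interval from -0.46 to 0.51 (adjusted p = 0.962). YUC4, expressed at the tips and margins of young organs, had the highest log2 fold change of the class, 0.21, with an interval from -0.22 to 0.63 (adjusted p = 0.578). Its signals were 0.4, 11.1, 1.01 and 0.769 in wildtype and 3.77, 8.35, 10.8 and 1.37 in E2Fa-Dpa, so a single wildtype array was brighter than all E2Fa-Dpa arrays. YUC11, known mainly from seeds, was at 6.90, 0.695, 0.235 and 1.03 in wildtype and at 1.597, 0.529, 1.39 and 5.09 in E2Fa-Dpa, with a log2 fold change of 0.00.

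The 5 GH3 genes analysed did not move together. WES1 rose, GH3.3 had a higher mean that did not pass the test, and GH3.17, GH3.1 and GH3.9 had lower means that did not pass it. Whether the change differed between members was not tested.

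WES1 (GH3.5, AT4G27260) conjugates auxin, mainly with aspartate, and can also conjugate salicylic acid. Its signals were 286, 266, 209.6 and 117 in wildtype and 467, 465, 556 and 483 in E2Fa-Dpa. The groups did not overlap, and the wildtype arrays with control RNA were the lowest. The mean went from 219.6 ± 75.8 to 492.7 ± 43.2 (SD, n = 4 each), 2.24 times the wildtype mean, and the log2 fold change was 1.17 with an SE of 0.238 (adjusted p = 0.0194). IAA29 and WES1 were the only auxin genes whose groups did not overlap, while E2Fa-Dpa lay wholly above wildtype in 9.53% of all probe sets and wholly below in 6.77%. WES1 rose by 0.85 without control RNA and by 1.504 with it, and the difference between these did not pass the test (interaction 0.66, adjusted p = 0.486). Its call was lost without E2Fa-Dpa replicate 1, 3 or 4, with adjusted p between 0.0561 and 0.0609, and with the pairs of arrays as a random block (adjusted p = 0.0994).

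GH3.17 (AT1G28130), which joins auxin to glutamate, was the member with the lowest log2 fold change. Its signals were 254, 238, 132 and 139 in wildtype and 95.01, 148, 146 and 97.3 in E2Fa-Dpa. Within the arrays without control RNA both E2Fa-Dpa values were below both wildtype values, and so they were within the arrays with it, while over all 8 arrays the groups overlapped. The mean went from 191 ± 64.1 to 122 ± 29.4, with a log2 fold change of -0.56 ± 0.24 (SE) that did not pass the test (adjusted p = 0.2). A block for the array set left the fold change as it was and brought it past the threshold (adjusted p = 0.00302), in a fit where 9.77% of all probe sets were lower and 11.7% higher. Within the sets it was -0.68 without control RNA (adjusted p = 0.0148) and -0.43 with it (adjusted p = 0.111). The fit without control RNA called 1253 of all 22746 probe sets higher and 1170 lower. These fits rest mostly on the spread within close pairs of arrays, and with the pairs as a random block the adjusted p was 0.365.

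GH3.3, a GH3 gene that responds quickly to auxin, had signals of 65.5, 82.4, 90.2 and 32.8 in wildtype and 90.8, 83.5, 189 and 81.6 in E2Fa-Dpa. E2Fa-Dpa replicate 3 stood far above the other arrays, and wildtype replicates 2 and 3 lay within the range of E2Fa-Dpa. The log2 fold change of 0.59 had an interval from -0.09 to 1.27 (adjusted p = 0.287), and it was 0.33 without E2Fa-Dpa replicate 3. GH3.1 lay between 5.62 and 9.29 in wildtype and between 2.75 and 8.77 in E2Fa-Dpa, with a log2 fold change of -0.15 (adjusted p = 0.42). GH3.9, known from primary root growth, lay between 10.7 and 14.9 and between 5.83 and 11.8, with -0.14 (adjusted p = 0.489).

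By class, the median log2 fold change was -0.09 for the 7 IAA genes, 0.03 for the 4 YUC genes and -0.14 for the 5 GH3 genes. These medians lie within 0.15 of that over all probe sets, 0.00, and IAA29 and WES1 lie at the 99.1 and 98.6 percentile of all log2 fold changes. With each array centred on its median, all probe sets shifted to a median of -0.06 and 4 auxin genes stayed above 0, with the same 2 risen. The sign of the log2 fold change turned in at least 1 of the other settings for IAA18, IAA20, IAA31, YUC2, YUC6 and YUC11. It turned in none for IAA29, WES1, GH3.3 or GH3.17, nor for GH3.1, GH3.9, IAA30, IAA33, IAA34 or YUC4.

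Between the arrays with and without control RNA, with the group in the model, 11 of the 16 auxin genes did not pass the test and 5 did, near the 26.3% of all probe sets that passed. The 5 were GH3.17, YUC2, YUC6, IAA31 and IAA33, each lower with control RNA. Counted without regard to the test, 13 of 16 auxin genes had a lower value with control RNA, as did 60.7% of all probe sets, and the median log2 difference was -0.32, beside -0.07 over all probe sets. YUC2 had a mean of 39.1 without and 23.7 with control RNA, and GH3.17 of 196 and 116. Neither IAA29 (-0.32, adjusted p = 0.127) nor WES1 (-0.42, adjusted p = 0.129) passed this test. Along the same split, the clock-controlled genes GI and COR27 differed by 1.15 and 3.00 (log2, with minus without; adjusted p = 0.016 and 0.000874) and the root hair expansins EXPA7 and EXPA18 by -0.51 and -0.42. Their part in the values of the auxin genes was not tested. No auxin gene passed the interaction of group and array set, for which 0.0835% of all probe sets passed.

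**Figure D3:**
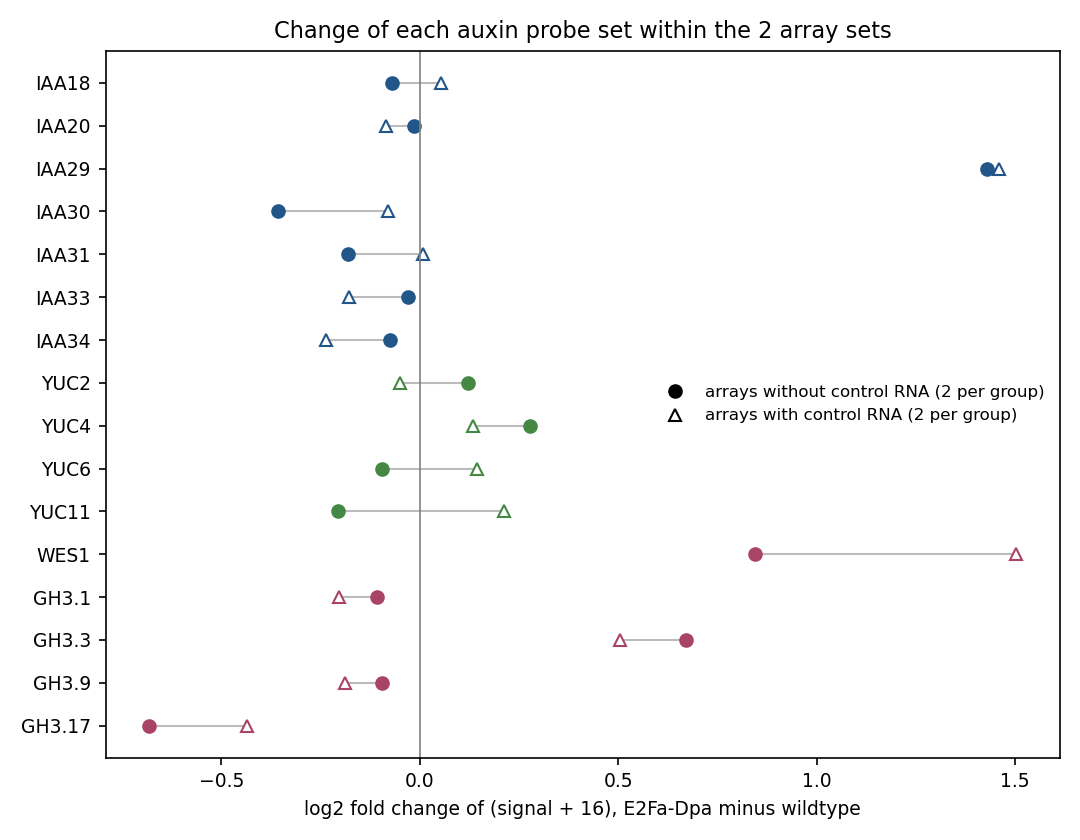
The x axis gives the log2 fold change of signal + 16, E2Fa-Dpa minus wildtype, computed within the arrays without control RNA (filled circles, 2 arrays per group) and within those with it (open triangles, 2 arrays per group), for each auxin gene on the y axis. The values of IAA29 lie close together at 1.43 and 1.46, those of WES1 at 0.85 and 1.504, and those of GH3.17 at -0.68 and -0.43.

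Other genes of the auxin pathway came from a list of 233 genes written by role, not by how they moved. The 233 include IAGLU, added after the annotation was read. Besides IAGLU and the 4 of the 16 members that are on this list, 13 of its genes had a named probe set. Of these 13 genes, WAG2 and UGT74D1 fell and none rose, beside 2.94% of all probe sets that fell. At an unadjusted p under 0.05, 1 of the 13, SHI, was higher. The median log2 fold change of the 13 was 0.00. No gene of the receptor and degradation list or of the co-repressor list was matched to a named probe set, so these genes are not analysed here.

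WAG2 encodes a protein kinase of the PINOID group, which phosphorylates PIN auxin carriers and so steers the direction of auxin flow. Its signals were 28.8, 36.3, 21.4 and 42.6 in wildtype and 7.6, 11.9, 10.6 and 11.8 in E2Fa-Dpa. All E2Fa-Dpa arrays were below all wildtype arrays and below a signal of 16, a range not shown to be above background, so no ratio of the signals is given. The mean went from 32.3 ± 9.19 to 10.5 ± 1.99 (SD, n = 4 each), and the log2 fold change was -0.85 with an SE of 0.156 (adjusted p = 0.0127). The value depends on the added constant, with -1.51 at a constant of 1 and -0.37 at 64. It was -0.83 and -0.87 within the arrays without and with control RNA, the second not past the threshold (adjusted p = 0.111), and its call was lost with the pairs as a random block (adjusted p = 0.135). PID2, a relative of the same kinase group, had -0.07 (adjusted p = 0.832).

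UGT74D1 encodes a glucosyltransferase that acts on auxin and its oxidised form. Its signals were 147, 147, 164 and 145 in wildtype and 92.2, 86.8, 62.0 and 84.2 in E2Fa-Dpa. The groups stood clearly apart, and the wildtype arrays differed little among themselves. The mean went from 151 ± 8.74 to 81.3 ± 13.3 (SD, n = 4 each), 1.85 times higher in wildtype, and the log2 fold change was -0.79 with an SE of 0.132 (adjusted p = 0.00859). The fall was -0.86 without control RNA and -0.71 with it, the second just short of the threshold (adjusted p = 0.0502), and with the pairs as a random block the adjusted p was 0.0747. WAG2 and UGT74D1 kept their calls whichever single array was left out, with adjusted p up to 0.0491 and 0.0308.

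Other measured genes of the list for auxin conjugation, hydrolysis and catabolism had no change that passed the test. IAGLU, another glucosyltransferase of auxin, had signals of 112, 71.2, 73.0 and 62.1 in wildtype and 113, 98.2, 95.6 and 110 in E2Fa-Dpa. Only wildtype replicate 1 reached the range of E2Fa-Dpa, and the log2 fold change of 0.35 had an interval from -0.01 to 0.72 (adjusted p = 0.233). UGT84B1, which glucosylates auxin, was under 16 on all arrays, with 0.17 (adjusted p = 0.317). Its close relative UGT84B2 had 0.00. ILR3, a basic helix-loop-helix factor first found through resistance to an auxin conjugate, had 0.07 (adjusted p = 0.851).

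Among 6 genes of the auxin-induced and growth list, none passed. SHI, a zinc finger protein of a family that activates YUC genes, had signals of 10.7, 27.3, 16.2 and 10.1 in wildtype and 31.4, 21.2, 29.7 and 32.5 in E2Fa-Dpa. Wildtype replicate 2 overlapped with E2Fa-Dpa replicate 2, and the log2 fold change was 0.50, with an interval from 0.09 to 0.91 (adjusted p = 0.134). ARL, a promoter of cell expansion, had 0.26 (adjusted p = 0.304), and the lateral root factors LBD29 and LBD16 had -0.16 and -0.03 (adjusted p = 0.512 and 0.958). HAT2, a homeodomain factor induced by auxin and by shade, had 0.19 (adjusted p = 0.614), and FHL, which carries phytochrome A into the nucleus, 0.06 (adjusted p = 0.901). They were the 2 genes of the phytochrome and shade list with a named probe set.

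**Figure D4:**
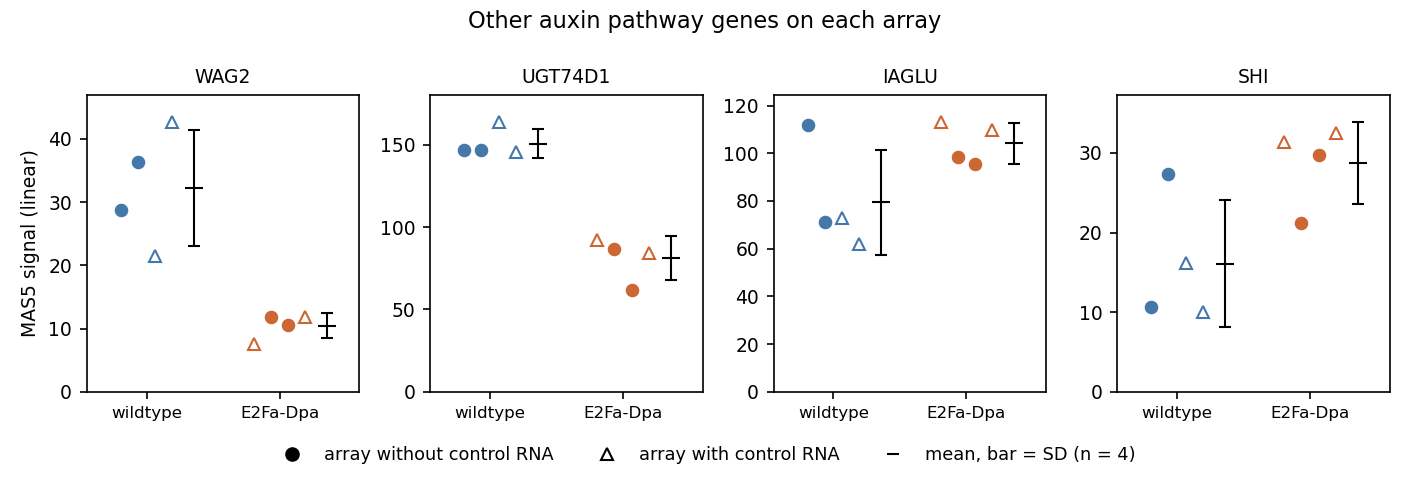
Each panel shows the authors' linear MAS5 signal of 1 gene on every array (y axis from 0), by group (x axis), with filled circles for arrays without control RNA, open triangles for arrays with it, and the mean with the SD of 4 arrays beside them. WAG2 and UGT74D1 are lower on all E2Fa-Dpa arrays than on all wildtype arrays, while the groups overlap for IAGLU and SHI.

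Of 8 markers of organs and cell types with a named probe set, 1 passed the test between the groups and 7 did not. PYK10, a root glucosidase and the 1 gene of the root list with a named probe set, fell (adjusted p = 0.033), as did 2.94% of all probe sets. Its signals ran from 3420 to 4608 in wildtype and from 2486 to 2727 in E2Fa-Dpa. With the pairs of arrays as a random block its call was lost (adjusted p = 0.158). The summed signal of the root hair expansins EXPA7 and EXPA18 ran from 93.5 to 164 in wildtype and from 80.0 to 116 in E2Fa-Dpa (adjusted p = 0.512 and 0.294 for the genes). The summed signal of SPCH, MUTE and FMA, factors of the stomatal lineage, ran from 47.2 to 67.8 in wildtype and from 72.8 to 98.0 in E2Fa-Dpa. MUTE was under 16 on all arrays, and none of the 3 passed the threshold (adjusted p = 0.104, 0.602 and 0.431). Of the 3, only SPCH had groups that did not overlap, with 14.0 to 34.0 in wildtype and 36.7 to 44.0 in E2Fa-Dpa. E2Fa-Dpa lay wholly above wildtype in 9.53% of all probe sets. With the array set as a block SPCH passed (adjusted p = 0.0383), in a fit where 11.7% of all probe sets were higher. With the pairs of arrays as a random block SPCH did not pass (adjusted p = 0.368). The shoot meristem gene CLV3 and the trichome gene TRY were under 16 on all arrays, and no gene of the vascular list was matched to a named probe set. The part of these markers in the values of IAA29, WES1, WAG2 and UGT74D1 was not tested.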

How the data were processed

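The deposited values are linear intensities, 1 per probe set and array, which the submitters' processing notes credit to MAS5, with no version. As deposited, every array has a trimmed mean of 100 from the authors' scaling. The number of arrays limits the precision. Of 22810 probe sets, 64 are controls, and 22746 were tested.

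Contrasts were fitted on log2(signal + 16) by lmFit and eBayes, with a trend in the prior variance, from limma 3.58.1 (R 4.3.3), over the 8 arrays without covariates and adjusted by the Benjamini-Hochberg method over all tested probe sets. The procedure was tested on simulated data. Single genes were also compared by an exact permutation test. The platform annotation names 1 gene for 13513 of the tested probe sets and several genes for 503. It does not list the other 8730, so a gene without a named probe set may still have a signal. All 16 members matched the RefSeq table of assembly TAIR10.1, used for names and loci only.

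The members, the lists and the array sets were chosen with earlier results of these data known. The array sets were read from the Bacillus poly-A control probe sets alone. Signals of every array are given for genes past the threshold in the fit with or without the array set and for the highest and lowest of each class. GH3.3, IAA18, YUC2, YUC6, IAGLU and SHI were shown in more detail after their values were seen. Alternatives were other constants, a filter at a mean signal of 50, median centring, quantile and cyclic loess scaling, blocks for array set, pair and replicate number, averaged pairs, no trend and each array left out.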

Additional observations from a re-analysis of the deposited data

Results flagged for a closer look

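Among the 16 auxin genes, 32 groups of 4 arrays were checked for an array far from the others by Dixon's criterion, which flags about 1 in 20 groups by chance, and 3 were found. GH3.3 was at 189 on E2Fa-Dpa replicate 3, against 81.6 to 90.8 on the other E2Fa-Dpa arrays. YUC4 was at 11.1 on wildtype replicate 2 and YUC11 at 6.90 on wildtype replicate 1, while the other wildtype values of these genes lay between 0.235 and 1.03. No gene among the 16, or among the 13 other pathway genes, passed the interaction of group and array set.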

How the results depend on the processing

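The count of 2 risen auxin genes fell to 1 with the pairs of arrays as a random block and to 0 with each pair averaged, where 2 were still under an unadjusted p of 0.05, and was between 1 and 2 with single arrays left out. The count of fallen auxin genes went from 0 to 1, GH3.17, with the array set as a block and within the arrays without control RNA. These fits called 2223 and 1170 of all 22746 probe sets lower, against 669 in the main fit. The count of 2 fallen pathway genes became 1 of 4 tested at a mean signal of at least 50 (WAG2 was not tested there), and 0 within the arrays with control RNA, with pairs as a random block and with pairs averaged. Averaging leaves 4 values in all. A mean signal of at least 50 left 5 auxin genes, with a median log2 fold change of 0.59. Over all probe sets that passed this filter the median was 0.07, and 57.2% were above 0. The 3 GH3 genes left also had a median of 0.59, the value of GH3.3, which did not pass the test. The 2 IAA genes left, IAA18 at -0.01 and IAA29 at 1.45, had a median of 0.72 that describes neither, and no YUC gene was left. A constant of 1 gave -0.22 for the IAA class. The other class medians moved by less than the spread between arrays. Deviations of wildtype and E2Fa-Dpa arrays of the same replicate number correlated at -0.52, 0.44, -0.36 and 0.53. Numbers 1 and 3 cross the array sets while 2 and 4 share a set, so the signs follow the sets. Within a set, wildtype and E2Fa-Dpa arrays of different numbers correlated at 0.31 to 0.55, so these values show no pairing by number. With a replicate block 2 auxin genes rose and 2 pathway genes fell, as without it, while calls over all probe sets went from 992 risen and 669 fallen to 549 and 305. Dim signals limit 9 of the 16 auxin genes, and the pairing of arrays limits what n = 4 can carry.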
